A study of Caenorhabditis elegans with 27 samples.

Results

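The endoplasmic reticulum (ER) chaperones and unfolded protein response genes followed here were hsp-3, hsp-4, xbp-1, ire-1, crt-1, pdi-1, pdi-2, pdi-3, pdi-6 and ero-1 of Caenorhabditis elegans. They were chosen by symbol, as all probe sets of the array whose annotation gives one of these 10 symbols alone, which made 16 probe sets of 22548. All 16 lay over the filter on low values, so no member was lost. The 4 genes hsp-3, hsp-4, crt-1 and pdi-3 had a single probe set, and for the other 6 the probe set of the higher mean stands for the gene, with the second given where its call differed.

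The arrays measured RNA of whole worms of strain GE24, in which all groups, controls included, carry pha-1(e2123), a temperature-sensitive allele that arrests embryos at higher temperature. HuminFeed (HF), a humic substance preparation, or Huminfeed-Hydroquinone (HF-HQ) was given at 0 mM (control), 0.2 mM or 2.0 mM dissolved organic carbon. HF worms were harvested 3 or 11 days old and HF-HQ worms 3 days old, and each of the experiments had its own control. In all there were 9 groups with 3 arrays each. Plates with the same dose already held the parental culture for 5 days at 15 °C, and 15000 filtered larvae were then raised on 3 plates at 25 °C, so exposure began in the parental culture. A descriptor common to all 27 arrays says L4 larvae, whereas the study's design speaks of adults. Cultures were made in triplicate, but nothing says that these were separate populations, so the p-values measure the spread between arrays, which may be technical.

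When unfolded protein collects in the ER, the membrane kinase and ribonuclease IRE-1 splices xbp-1 mRNA, and the transcription factor made from it raises chaperone genes. In the worm hsp-4 is the usual readout of this branch, and its close paralog hsp-3 is the more constitutive form of the same Hsp70-type chaperone, BiP. Calreticulin, the disulfide isomerases and the oxidase ERO-1 fold secreted proteins such as yolk proteins of the intestine and collagens of the cuticle.

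Values are deposited log2 levels, so a difference of 1 is a doubling. The distributions differed by experiment: the 75th percentile per array was 7.45 to 7.53, 7.35 to 7.42 and 9.28 to 9.39 for HF at 3 days, HF at 11 days and HF-HQ, so the experiments may have been normalized separately. Treated and control levels were therefore compared within an experiment, values set across experiments are named as such, and a probe set's level was not compared with another's. Between 8818 and 10491 probe sets lay over log2 5 per array. Arrays of a group correlated at 0.995 or more over the tested probe sets, except with 0.2 mM HF-HQ (0.987 to 0.994), where array 2 stood apart in several of the genes below. A probe set was called at an adjusted p under 0.05, by limma with Benjamini-Hochberg adjustment over 11102 tested probe sets, and adjusted p below are from that fit. Whole worms cannot tell fewer cells of a type from less RNA per cell.

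**Figure D1:**
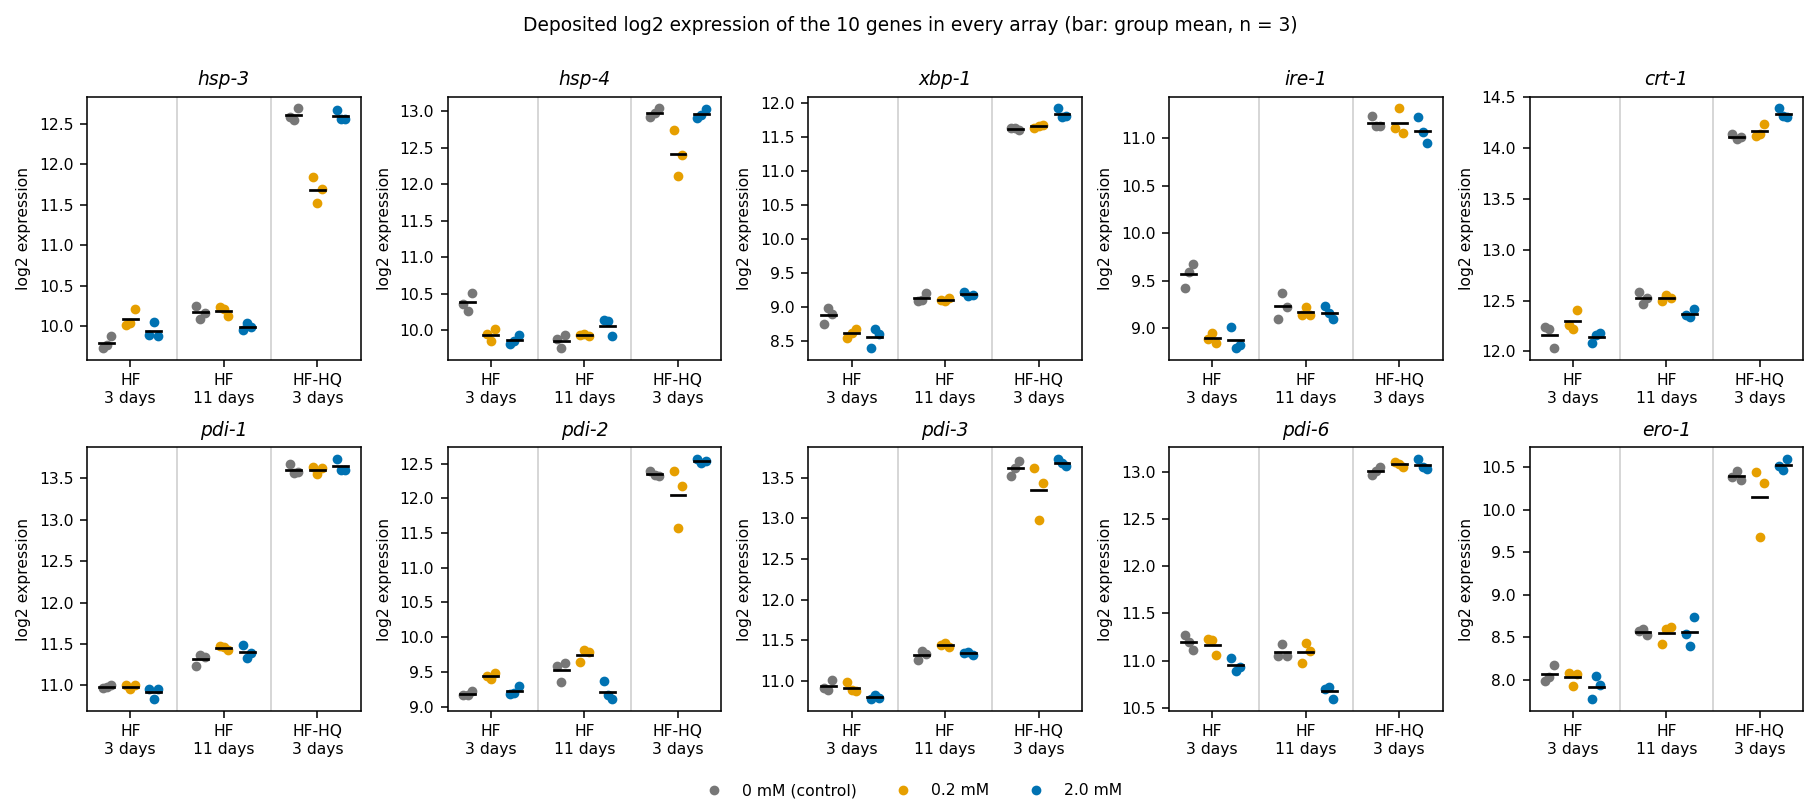
Deposited log2 expression of each gene (vertical axis, own scale per panel) in all 27 arrays, by experiment and dose (0, 0.2 and 2.0 mM from left to right); points are arrays and bars group means of 3. With HF at 3 days the treated arrays of hsp-4, xbp-1 and ire-1 lie below the controls. With 0.2 mM HF-HQ the arrays of hsp-3 lie below all other arrays of that experiment. The distributions of the experiments differ, and the cause of the steps between experiments was not tested.

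In 3-day worms both doses of HF lowered the sensor ire-1, its target xbp-1 and the chaperone hsp-4, while hsp-3, the other BiP gene, rose with 0.2 mM. Of the 10 genes, 1 rose and 3 fell with 0.2 mM HF, where of all tested probe sets 26% were called higher and 32.9% lower. With 2.0 mM none rose and 4 fell, where of all 28% were called higher and 32.9% lower. The median difference of the 10 genes was -0.02 with 0.2 mM (all probe sets -0.03) and -0.14 with 2.0 mM (all probe sets -0.02).

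The log2 level of ire-1, the stress sensor, was 9.43, 9.60 and 9.68 in control arrays, 8.88, 8.95 and 8.85 with 0.2 mM and 9.01, 8.79 and 8.82 with 2.0 mM HF. All treated arrays lay below all controls. Its difference from control was -0.67 ± 0.09 (SE; adjusted p = 8.93e-07) with 0.2 mM, a 1.59-fold lower level, and -0.69 ± 0.09 (adjusted p = 4.74e-07) with 2.0 mM. The second probe set fell as well, by 0.78 and 0.74 on the log2 scale at the low and the high dose.

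For xbp-1, the transcription factor gene whose mRNA IRE-1 splices, the values were 8.75, 8.99 and 8.90 in controls, 8.55, 8.62 and 8.67 with 0.2 mM and 8.40, 8.68 and 8.60 with 2.0 mM HF. Again no treated array reached the controls. The probe set gives 1 level for the gene, and spliced and unspliced forms were not separated. It fell by 0.26 ± 0.07 on the log2 scale (adjusted p = 0.00144) with 0.2 mM and by 0.32 ± 0.07 (adjusted p = 0.00021) with 2.0 mM. At its second probe set the difference was called with 2.0 mM (-0.45 ± 0.09) but not with 0.2 mM (-0.11 ± 0.09, adjusted p = 0.341).

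Arrays of hsp-4 gave 10.37, 10.27 and 10.52 in controls, 9.95, 9.86 and 10.02 with 0.2 mM and 9.81, 9.86 and 9.94 with 2.0 mM HF. This inducible BiP gene was thus lower in all 6 treated arrays than in any control. The differences were -0.44 ± 0.10 (adjusted p = 0.000973) and -0.51 ± 0.10 (adjusted p = 0.000195) at the low and the high dose. Its paralog hsp-3 had 9.73, 9.76 and 9.88 in controls, 10.01, 10.04 and 10.21 with 0.2 mM and 9.89, 10.05 and 9.88 with 2.0 mM HF. The 0.2 mM arrays of hsp-3 lay above all controls, and the lowest 2.0 mM array was level with the highest control to 2 decimals. It rose by 0.30 ± 0.08 (adjusted p = 0.00188) with 0.2 mM, and differed by 0.15 ± 0.08 (adjusted p = 0.0957) with 2.0 mM. The 2 genes are close paralogs, and whether their probe sets share signal was not tested.

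Among the folding enzymes, pdi-6, a disulfide isomerase gene, had 11.27, 11.19 and 11.12 in controls, 11.23, 11.22 and 11.06 with 0.2 mM and 11.03, 10.89 and 10.94 with 2.0 mM HF. Only the 2.0 mM arrays lay below all controls, with a difference of -0.24 ± 0.07 (adjusted p = 0.00281), and its second probe set gave -0.14 ± 0.09 (adjusted p = 0.216). The values of pdi-2, whose protein is also a subunit of collagen prolyl 4-hydroxylase, were 9.17, 9.16 and 9.23 in controls, 9.45, 9.40 and 9.48 with 0.2 mM and 9.18, 9.19 and 9.29 with 2.0 mM. The 0.2 mM arrays lay above the others, but the main probe set missed the threshold (0.25 ± 0.13, adjusted p = 0.0862) while the second passed it (0.21 ± 0.08, adjusted p = 0.0349). In a fit to this experiment's arrays alone, or with the median over its probe sets, pdi-2 was called higher with 0.2 mM. For crt-1, the calreticulin gene, pdi-1, pdi-3 and ero-1, differences from control ran from -0.14 to 0.13 over both doses, and none was called. Under alternatives, crt-1 with 0.2 mM was called higher in 4 of 14, and pdi-3 with 2.0 mM was called lower in 1, this experiment's arrays alone.

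Between the doses, pdi-6 alone differed at its main probe set, lower with 2.0 than with 0.2 mM (-0.22 ± 0.07, adjusted p = 0.0192), with 13.4% called higher and 7.65% lower of all probe sets. The second probe set of pdi-6 was not called (-0.15 ± 0.09, adjusted p = 0.306). No gene was called when the arrays were centred on their medians, or without array 1 or 2 of 0.2 mM or array 2 or 3 of 2.0 mM, and pdi-6 also lost its call in a fit to this experiment's arrays alone. The second probe sets of xbp-1 (-0.34 ± 0.09) and pdi-2 (-0.26 ± 0.08) were also called lower.

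Markers of other tissues moved in the same arrays. All 14 oocyte and germ line markers fell at both doses, with a mean log2 level of 10.15 (10.12 to 10.19) with 0.2 mM and 10.21 (10.20 to 10.24) with 2.0 mM HF, against 10.68 (10.67 to 10.69) in controls (range over arrays). Of 10 intestine markers 9 rose with 0.2 mM and 8 with 2.0 mM, with means of 9.67 (9.63 to 9.69) and 9.67 (9.64 to 9.70), against 9.10 (9.06 to 9.17) in controls. The 12 sperm markers all rose with 0.2 mM and all fell with 2.0 mM, with means of 10.51 (10.48 to 10.54) and 8.54 (8.41 to 8.61), against 9.83 (9.79 to 9.86) in controls. Of 11 body wall muscle markers 8 rose with 0.2 mM and 9 with 2.0 mM, with means of 10.11 (10.08 to 10.14) and 10.23 (10.19 to 10.25), against 9.63 (9.56 to 9.68) in controls. Of 9 cuticle collagens of the hypodermis 4 rose with 0.2 mM, and 4 rose and 2 fell with 2.0 mM, with means of 11.53 (11.51 to 11.56) and 11.43 (11.42 to 11.44), against 11.35 (11.31 to 11.37) in controls. No germ line or intestine marker was under log2 5 in these groups, the muscle gene myo-3 was under it in all 3 and the collagen gene rol-6 in controls and with 2.0 mM, and of the sperm markers spe-11 and ssp-16 were under it with 2.0 mM. An RNA measure, the ubiquitin control probe sets as 5′ minus 3′ end in log2, gave -2.92, -2.96 and -2.98 in controls, -3.08, -3.07 and -3.15 with 0.2 mM and -3.08, -3.05 and -2.98 with 2.0 mM HF, so that all 0.2 mM arrays lay below the controls and 1 array of 2.0 mM did not. Some array controls also differed in mean level. The 5′ probe set of r2-Ec-bioB gave 6.71 in controls, 7.30 with 0.2 mM and 7.23 with 2.0 mM HF. That of r2-Ec-bioC gave 8.98, 9.51 and 9.39 in the same order, while that of CreX gave 13.46, 13.51 and 13.49. The part of these shifts in the results above was not tested.

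**Figure D2:**
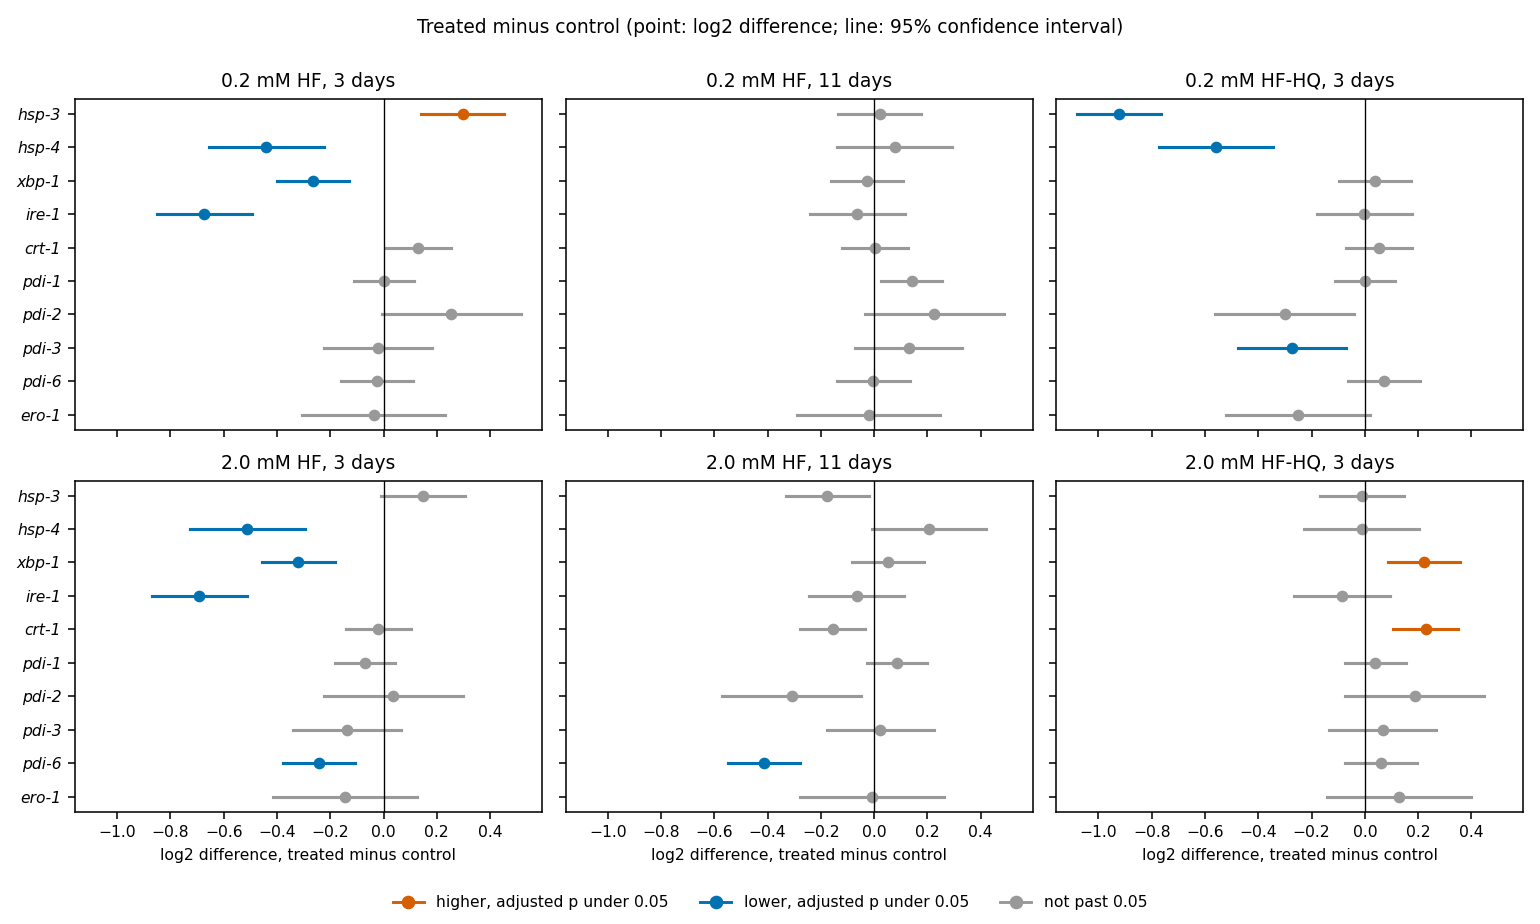
Differences from control (log2, horizontal axis) of the 10 genes in the 6 treatments; points are estimates, lines 95% confidence intervals from limma and colours the call. In the left column ire-1, xbp-1 and hsp-4 lie below 0 at both doses; at 11 days pdi-6 is the one called; with 0.2 mM HF-HQ hsp-3 lies lowest at -0.92.

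At 11 days HF changed few of these genes. With 0.2 mM none of 10 was called, where of all tested probe sets 3.22% were called higher and 0.784% lower. With 2.0 mM pdi-6 fell and none rose, where 13.4% were called higher and 14.8% lower. Higher calls were 80.4% of all calls with 0.2 mM (68% after quantile normalization) and 47.5% with 2.0 mM (58.6% after centring the arrays on their medians). At 0.2 mM limma gave 1 gene, pdi-1, an unadjusted p under 0.05, and each alternative run on this comparison called 0 as well. Intervals of the 0.2 mM differences reached -0.29 and 0.49 at the extremes. The median difference was 0.01 with 0.2 mM (all probe sets 0.02) and -0.04 with 2.0 mM (all probe sets -0.01).

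The values of pdi-6 at 11 days were 11.05, 11.18 and 11.05 in controls, 10.97, 11.19 and 11.10 with 0.2 mM and 10.70, 10.73 and 10.60 with 2.0 mM HF. The 2.0 mM arrays lay below all others. The isomerase gene fell by 0.41 ± 0.07 on the log2 scale with 2.0 mM against control (adjusted p = 7.21e-05), 1.33-fold lower, while its second probe set gave -0.22 ± 0.09 (adjusted p = 0.078). The calls of other genes depended on the arrays and the fit: without control array 2, crt-1 and pdi-2 were called lower too (3 genes in all), without array 1 of 2.0 mM pdi-2 was (2 in all), and a fit to this experiment's arrays alone called 4 genes.

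The other members at 11 days showed this picture. For pdi-2 the values were 9.58, 9.36 and 9.63 in controls, 9.64, 9.82 and 9.79 with 0.2 mM and 9.36, 9.16 and 9.11 with 2.0 mM HF. Its 2.0 mM arrays lay below those with 0.2 mM and 1 of them was level with the lowest control to 2 decimals. Against control the difference with 2.0 mM was -0.31 ± 0.13 (adjusted p = 0.0689). The calreticulin gene crt-1 had 12.58, 12.47 and 12.53 in controls, 12.50, 12.56 and 12.53 with 0.2 mM and 12.35, 12.34 and 12.42 with 2.0 mM. It was lowest with 2.0 mM without overlap, at -0.16 ± 0.06 against control (adjusted p = 0.0533). The BiP genes hsp-3 and hsp-4 gave -0.18 ± 0.08 (adjusted p = 0.0876) and 0.21 ± 0.10 (adjusted p = 0.148).

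The sensor and its target were not called at 11 days: ire-1 had 9.09, 9.37 and 9.22 in controls, 9.13, 9.23 and 9.14 with 0.2 mM and 9.23, 9.16 and 9.10 with 2.0 mM HF, with overlapping groups. The factor gene xbp-1 ran from 9.09 to 9.22 over the 9 arrays. Arrays of hsp-4 gave 9.88, 9.76 and 9.93 in controls, 9.93, 9.95 and 9.93 with 0.2 mM and 10.14, 10.13 and 9.93 with 2.0 mM. In hsp-4 the highest control and the lowest 2.0 mM array were level to 2 decimals. Those of hsp-3 gave 10.25, 10.09 and 10.17, 10.23, 10.21 and 10.12 and 9.95, 10.04 and 9.99 in the same order of dose, the 2.0 mM arrays below the others.

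Set against each other, the doses differed at 11 days in 3 genes, all lower with 2.0 than with 0.2 mM HF, with 12.2% called higher and 18.3% lower of all probe sets. Higher calls were 39.9% of all calls, and 50.4% after quantile normalization. They were pdi-2 (-0.54 ± 0.13, adjusted p = 0.00251), pdi-6 (-0.41 ± 0.07, adjusted p = 6.04e-05) and crt-1 (-0.16 ± 0.06, adjusted p = 0.0463). The call of crt-1 was lost without any 1 of the 6 arrays compared, which left 2 genes, and after centring the arrays or with a replicate block, while pdi-2 and pdi-6 passed in each of these fits. The second probe sets of pdi-2 (-0.13 ± 0.08, adjusted p = 0.246) and pdi-6 (-0.15 ± 0.09, adjusted p = 0.241) were not called. At 11 days 11 of 14 germ line markers rose with 2.0 mM HF, with a mean of 10.86 (10.83 to 10.88), against 10.49 (10.48 to 10.50) in controls. In the same arrays 8 of 12 sperm markers rose, with a mean of 5.35 (5.22 to 5.42), against 4.67 (4.63 to 4.75) in controls, where 7 of them were under log2 5. Of 9 cuticle collagens 6 rose, with a mean of 8.67 (8.67 to 8.68), against 8.28 (8.20 to 8.35), and of 10 intestine markers 3 fell, with elt-2 and elt-7 under log2 5 in both groups. Of 11 muscle markers 4 rose and 2 fell. With 2.0 mM HF against control 13.4% of all tested probe sets were called higher and 14.8% lower. The part of these markers in the fall of pdi-6 was not tested.

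HF-HQ at 0.2 mM lowered both BiP genes, hsp-3 by 1.9-fold and hsp-4 by 1.47-fold, and pdi-3 less, in a call that did not hold under 7 of 14 alternatives: without array 2 of 0.2 mM or control array 2 or 3, with no filter on low values, with centred arrays, with a replicate block or with this experiment's arrays alone. Neither BiP gene was called with 2.0 mM HF-HQ, where xbp-1 and crt-1 rose. Of the 10 genes 3 fell and none rose with 0.2 mM, where of all tested probe sets 15.9% were called higher and 14.3% lower. With 2.0 mM 2 rose and none fell, where 13.2% were called higher and 10.3% lower. The median difference was -0.13 with 0.2 mM (all probe sets 0.05) and 0.06 with 2.0 mM (all probe sets -0.02).

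The levels of hsp-3 were 12.59, 12.55 and 12.69 in controls, 11.84, 11.53 and 11.69 with 0.2 mM and 12.67, 12.55 and 12.57 with 2.0 mM HF-HQ. The 3 arrays with 0.2 mM lay apart below the other 6. Against control hsp-3 differed by -0.92 ± 0.08 (adjusted p = 4.28e-08) with 0.2 mM and by -0.01 ± 0.08 (95% confidence interval -0.17 to 0.15) with 2.0 mM. Without array 2 of 0.2 mM the difference was -0.84 (adjusted p = 3.49e-07).

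The second BiP gene, hsp-4, had 12.92, 12.97 and 13.04 in controls, 12.74, 12.11 and 12.40 with 0.2 mM and 12.91, 12.95 and 13.03 with 2.0 mM HF-HQ. Its 0.2 mM arrays spread widely but stayed below all others. The difference from control was -0.56 ± 0.10 (adjusted p = 0.000379) with 0.2 mM, -0.40 (adjusted p = 0.00314) without array 2, and -0.01 ± 0.10 (95% confidence interval -0.23 to 0.20) with 2.0 mM.

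Array 2 with 0.2 mM HF-HQ was the lowest of its experiment in the isomerase gene pdi-3, which had 13.53, 13.62 and 13.71 in controls, 13.62, 12.97 and 13.43 with 0.2 mM and 13.72, 13.68 and 13.64 with 2.0 mM. Of the other 2 arrays of 0.2 mM, 1 lay within the range of the controls. The difference of -0.27 ± 0.10 (adjusted p = 0.038) shrank to -0.09 without that array (adjusted p = 0.365). The same array was low in pdi-2, with 12.39, 11.58 and 12.18 at 0.2 mM, and in ero-1, the oxidase gene that recharges the isomerases, with 10.44, 9.68 and 10.32. Neither was called at 0.2 mM, with -0.30 ± 0.13 for pdi-2 (adjusted p = 0.0728) and -0.25 ± 0.13 for ero-1 (adjusted p = 0.147). Without array 1 of 0.2 mM both were called, 5 genes in all. The second probe set of ero-1 fell by 0.81 ± 0.22 (adjusted p = 0.00764), and its values were 8.99, 7.36 and 8.36 with 0.2 mM, against 9.00, 9.01 and 9.13 in controls, so the low array also leads there.

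The ubiquitin measure moved with that dose as well. It gave -2.10, -2.12 and -2.03 in controls, -2.25, -2.58 and -2.49 with 0.2 mM and -2.24, -2.06 and -2.15 with 2.0 mM HF-HQ, so that all 0.2 mM arrays were below all others and array 2 was lowest. Its part in the fall of hsp-3 and hsp-4 was not tested. Of 14 germ line markers 5 fell with 0.2 mM, with a mean of 12.52 (12.34 to 12.62), against 12.73 (12.71 to 12.75) in controls. Of 12 sperm markers 8 rose, with a mean of 6.52 (6.40 to 6.70), against 5.86 (5.72 to 5.92) in controls, but gsp-3, gsp-4, spe-11 and ssp-16 were under log2 5 in both groups. Of 10 intestine markers 4 rose, with a mean of 10.00 (9.92 to 10.12), against 9.76 (9.67 to 9.83) in controls, where elt-2 was under log2 5. Of 11 muscle markers 3 rose, and of 9 cuticle collagens 2 rose, where of all tested probe sets 15.9% were called higher and 14.3% lower. The part of these markers in the results for 0.2 mM was not tested.

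The factor gene xbp-1 had 11.63, 11.63 and 11.60 in controls, 11.63, 11.66 and 11.67 with 0.2 mM and 11.92, 11.80 and 11.81 with 2.0 mM HF-HQ. The 2.0 mM arrays lay above all others. It rose by 0.22 ± 0.07 (adjusted p = 0.0143), but without array 1 of 2.0 mM the adjusted p was 0.0784, which left 1 gene called, and its second probe set did not pass (0.15 ± 0.09, adjusted p = 0.303). Calreticulin crt-1 had 14.14, 14.08 and 14.11 in controls, 14.12, 14.14 and 14.23 with 0.2 mM and 14.39, 14.32 and 14.31 with 2.0 mM, again highest with 2.0 mM without overlap. Its rise was 0.23 ± 0.06 (adjusted p = 0.00608). For ire-1 the probe sets disagreed: the main one gave -0.09 ± 0.09 (adjusted p = 0.572) with 2.0 mM and the second was called lower with both doses (-0.40 ± 0.09 and -0.42 ± 0.09, adjusted p = 0.00161 and 0.000721).

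Tissue markers moved with 2.0 mM HF-HQ too, where of all tested probe sets 13.2% were called higher and 10.3% lower. Of 10 intestine markers 8 rose, with a mean of 10.34 (10.31 to 10.37), against 9.76 (9.67 to 9.83) in controls, where elt-2 was under log2 5. Of 9 cuticle collagens 5 fell, with a mean of 11.35 (11.30 to 11.40), against 11.78 (11.77 to 11.80) in controls. Of 14 germ line markers 4 fell, of 11 muscle markers 1 fell, and no sperm marker was called. Their part in the rises of xbp-1 and crt-1 was not tested.

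Most of these genes were higher with the high than with the low dose of HF-HQ. With 2.0 against 0.2 mM, 7 of 10 genes were higher and none lower, where of all tested probe sets 17.5% were called higher and 15.7% lower. Higher calls were 52.8% of all calls here and 42.3% after centring the arrays on their medians. The genes were hsp-3 (0.91 ± 0.08, adjusted p = 3.13e-09), hsp-4 (0.55 ± 0.10), pdi-2 (0.49 ± 0.13), pdi-3 (0.34 ± 0.10), ero-1 (0.38 ± 0.13), xbp-1 (0.19 ± 0.07) and crt-1 (0.18 ± 0.06). Without array 2 of 0.2 mM the count was 3 (hsp-3, hsp-4 and pdi-2), and without array 1 of 2.0 mM it was 4, as it was in a fit to this experiment's arrays alone. The calls of hsp-3 and hsp-4 passed under all 14 alternatives, and each of the other 5 was lost under at least 1. The second probe sets of pdi-2 (-0.02 ± 0.08, adjusted p = 0.909) and xbp-1 (0.16 ± 0.09, adjusted p = 0.219) were not called. Between these doses 6 of 10 intestine markers were higher and 2 lower, 7 of 9 cuticle collagens and 8 of 12 sperm markers were lower, and their part was not tested. The isomerase genes pdi-1 and pdi-6 did not pass, at 0.04 ± 0.05 and -0.01 ± 0.07.

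The remaining members, pdi-1 and ero-1, were called in none of the 6 treatments at their main probe sets. The isomerase gene pdi-1 ran from 10.84 to 11.01 over the 9 arrays of HF at 3 days, from 11.23 to 11.49 at 11 days and from 13.55 to 13.73 with HF-HQ. The oxidase gene ero-1 ran from 7.78 to 8.17, 8.40 to 8.74 and 9.68 to 10.59 in the same experiments. With HF-HQ pdi-6 ran from 12.96 to 13.13 and was not called at either dose.

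The effect of HF was tested for a difference between ages. With 0.2 mM the effects on hsp-4, xbp-1 and ire-1 were higher at 11 than at 3 days and that on hsp-3 was lower, 4 of 10 genes, with 26.1% called higher and 16.6% lower of all probe sets. The same 4 passed with 2.0 mM, with 32.7% called higher and 29.3% lower of all. For ire-1 the effect was -0.06 at 11 days and -0.67 at 3 days with 0.2 mM, a difference of 0.61 ± 0.12 (adjusted p = 0.000417). For hsp-4 with 2.0 mM it was 0.21 at 11 days and -0.51 at 3 days, a difference of 0.72 ± 0.15 (adjusted p = 0.000241). The calls at 0.2 mM of xbp-1 (0.24 ± 0.09, adjusted p = 0.0431) and hsp-3 (-0.28 ± 0.11, adjusted p = 0.0412) were close to the threshold. That of xbp-1 was lost under 13 of 20 alternatives, among them quantile normalization, these experiments alone and the probe-set median, and that of hsp-3 under 9 of 20. The second probe set of xbp-1 gave 0.03 ± 0.13 (adjusted p = 0.859). Leaving out any 1 array lowered the count to 3 or 2, and only 2 were left without control array 2 of 3 days, control array 1 of 11 days or 0.2 mM array 2 or 3 of 11 days. Age and experiment cannot be told apart here.

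**Figure D3:**
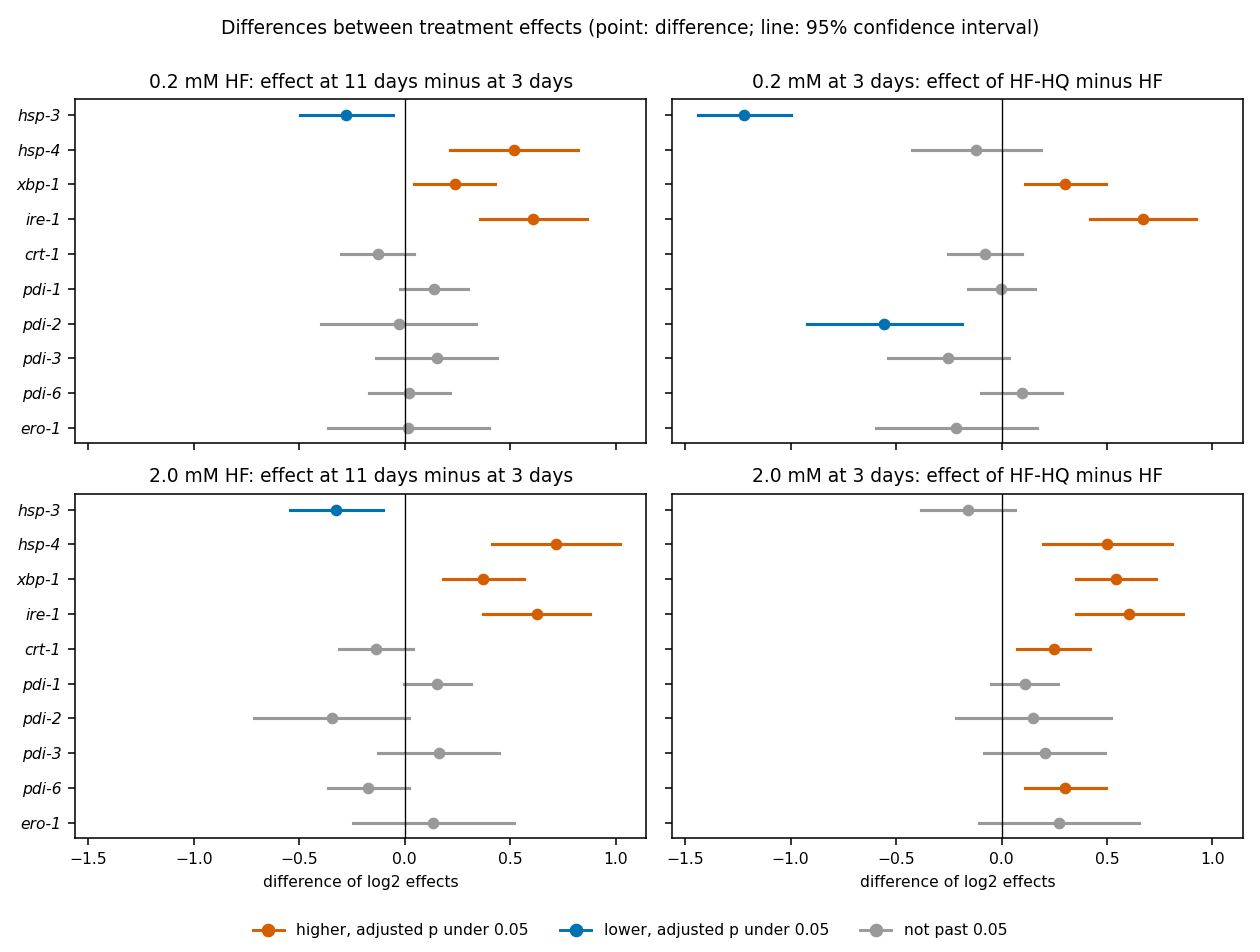
Differences between treatment effects (log2, horizontal axis) of the 10 genes: left, HF at 11 days minus HF at 3 days; right, HF-HQ minus HF at 3 days; points are estimates and lines 95% confidence intervals. The effects on ire-1 and xbp-1 lie above 0 in all 4 panels, and hsp-3 lies lowest at -1.22 for HF-HQ against HF at 0.2 mM.

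The preparations were compared at matched dose and age, in 2 pairs: HF-HQ against HF at 0.2 mM and at 2.0 mM, both at 3 days, with p-values adjusted over all probe sets within each pair. At 0.2 mM 2 genes were higher and 2 lower with HF-HQ, with 24.4% called higher and 15.8% lower of all probe sets. The effect on hsp-3 was -0.92 for HF-HQ and 0.30 for HF, so that the preparations moved it in opposite directions, with a difference of -1.22 ± 0.11 (adjusted p = 2.02e-08). That on pdi-2 differed by -0.56 ± 0.18 (adjusted p = 0.0158), on xbp-1 by 0.30 ± 0.09 (adjusted p = 0.0123) and on ire-1 by 0.67 ± 0.12 (adjusted p = 0.000156). No difference was detected for hsp-4 (-0.12, 95% confidence interval -0.42 to 0.19), which fell with both. The call of xbp-1 was lost after quantile normalization and with the median over its probe sets. The second probe sets of xbp-1 (0.10 ± 0.13, adjusted p = 0.568) and pdi-2 (-0.28 ± 0.12, adjusted p = 0.0632) were not called.

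At 2.0 mM 5 effects were higher with HF-HQ than with HF and none lower, with 27.6% called higher and 20.6% lower of all probe sets. They were those on ire-1 (0.61 ± 0.12), xbp-1 (0.54 ± 0.09), hsp-4 (0.50 ± 0.15), pdi-6 (0.30 ± 0.09) and crt-1 (0.25 ± 0.08), with adjusted p from 5.02e-05 to 0.0182. The effects on xbp-1 had opposite signs and each passed its own test, at 0.22 for HF-HQ and -0.32 for HF. For hsp-3 the interval of the difference was -0.38 to 0.06. The call of crt-1 was lost without control array 1 or 2 of HF at 3 days, and that of hsp-4 after quantile normalization (adjusted p = 0.0503). The second probe set of pdi-6 was not called (0.19 ± 0.13, adjusted p = 0.25).

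The 2 experiments at 3 days were not alike in their controls. Sperm markers averaged 5.86 (5.72 to 5.92) in HF-HQ controls and 9.83 (9.79 to 9.86) in HF controls, in distributions that differ, HF-HQ arrays having the higher values in general. Of these markers gsp-3, gsp-4, spe-11 and ssp-16 were under log2 5 in HF-HQ controls and none was in HF controls. The part of this in the differences between preparations was not tested. Preparation and experiment cannot be told apart, and each effect was taken against its own control. An own control does not remove a difference in scale. The standard deviation over the probe sets of an array was 3.78 to 3.82 for HF-HQ and 3.04 to 3.06 for HF at 3 days. The log2 effects of the 2 preparations may thus be on unlike scales.

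Among untreated worms of the HF experiments, 8 of the 10 genes were higher at 11 than at 3 days after quantile normalization of all arrays, and none was lower. Of all probe sets 40.7% were called higher and 35.8% lower. The median difference was 0.70 for the 10 genes and 0.04 for all probe sets. The largest were those of crt-1 (0.99 ± 0.06), pdi-3 (0.95 ± 0.11), pdi-1 (0.91 ± 0.06) and hsp-3 (0.84 ± 0.08), calreticulin, 2 isomerases and the constitutive BiP gene. Then came ero-1 (0.70 ± 0.13), pdi-2 (0.69 ± 0.13), xbp-1 (0.54 ± 0.06) and pdi-6 (0.45 ± 0.06), with adjusted p from 2.46e-13 for crt-1 to 6.29e-05 for pdi-2. The second probe set of pdi-2 was called the other way (-0.54 ± 0.09), and with the median over its probe sets pdi-2 was not called (adjusted p = 0.985). The inducible chaperone hsp-4 (-0.06 ± 0.11) and the sensor ire-1 (0.01 ± 0.08) did not pass, while the second probe set of ire-1 was called lower (-0.24 ± 0.09, adjusted p = 0.0167).

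Tissue markers moved between the ages in the same fit, where of all probe sets 40.7% were called higher and 35.8% lower. All 12 sperm markers were lower at 11 days (median difference -5.21), as were all 9 cuticle collagens (-2.53), 10 of 11 muscle markers (-1.63) and 8 of 10 intestine markers (-1.48), of which the other 2 were higher. Of 14 germ line markers 8 were higher and 1 lower (0.27). The ubiquitin measure was -3.18, -3.24 and -3.20 at 11 days, below all arrays at 3 days, which gave -2.92, -2.96 and -2.98 as deposited. The part of these shifts in the rises was not tested.

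These levels depend on the scaling. In the values as deposited all probe sets had a median difference of -0.24 between the ages, centred arrays gave -0.15, and quantile normalization 0.04. Higher calls made up 53.2% of all calls after quantile normalization, 40.4% after centring and 35.3% as deposited. At the main probe sets the rises of hsp-3, xbp-1, crt-1, pdi-1, pdi-2, pdi-3 and ero-1 passed under all 3. That of pdi-6 passed only after quantile normalization, at -0.017 centred and -0.10 as deposited. The second probe set of pdi-6 averaged, as deposited, 8.98 (8.95 to 9.04) at 3 days and 9.49 (9.42 to 9.61) at 11 days, without overlap. As deposited, hsp-4 (-0.52) and ire-1 (-0.34) were called lower, and so they were after centring. Age and experiment cannot be told apart.

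**Figure D4:**
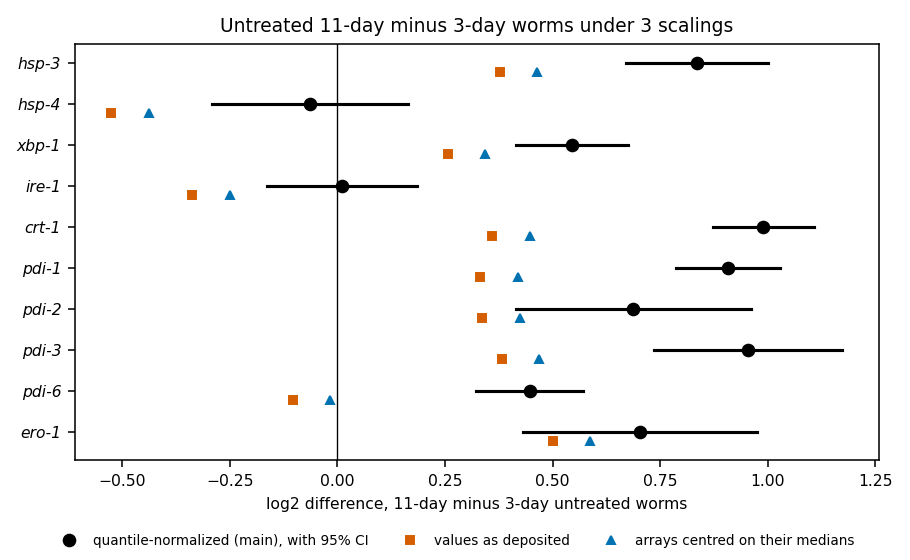
Log2 difference between untreated 11-day and untreated 3-day worms for the 10 genes under 3 scalings; black points with 95% confidence intervals are the quantile-normalized values, squares the values as deposited and triangles centred arrays. In all, 7 genes lie above 0 under each scaling, while pdi-6, hsp-4 and ire-1 change side or call.

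Over the 27 arrays, after each experiment's control mean was subtracted, the genes followed each other to different degrees. Pearson's r was 0.77 between xbp-1 and ire-1 and 0.79 between pdi-3 and ero-1, and lowest, at -0.49, between hsp-3 and ire-1. The 2 BiP genes had an r of 0.27. These are descriptions without a test, since arrays of a group share treatment, control mean and scaling. Of other genes, the ones most like hsp-3 were men-1 (0.94), efl-3 (0.92), C36B7.6 (0.92), pak-1 (0.92) and eri-12 (0.91). Those most like hsp-4 were ptr-2 (0.97), pct-1 (0.96), eif-2A (0.96), cya-1 (0.95) and mom-4 (0.95). Next to xbp-1 stood sip-1 (0.92), tyms-1 (0.91), mtch-1 (0.90), trcs-1 (0.90) and T20B12.7 (0.90), and next to crt-1 stood lro-1 (0.87), tth-1 (0.87), C18E9.9 (0.86), C33H5.13 (0.85) and pqm-1 (0.85).

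Of 12 other tested ER chaperones and folding enzymes, 6 fell and 1 rose with either dose of HF at 3 days, 7 of 12 called where 58.9% and 60.9% of all tested probe sets were called at the low and the high dose. Calnexin cnx-1, a lectin chaperone, fell by 0.52 on the log2 scale with 0.2 mM (adjusted p = 0.000408) and by 0.41 with 2.0 mM (adjusted p = 0.0031). The GRP94 gene enpl-1 fell by 0.18 and 0.27 at the same doses, C14B9.2 by 0.26 and 0.59, and ZK973.11 by 0.64 and 0.69. At 11 days 1 rose with 0.2 mM, where 4% of all probe sets were called. With 2.0 mM 2 rose and 2 fell, of which T14G8.3 fell by 0.61, where 28.3% of all were called. With HF-HQ 4 fell and 1 rose at 0.2 mM, where 30.2% of all were called, and 1 rose at 2.0 mM, where 23.5% were. Among those that fell at 0.2 mM were cnx-1 (-0.58), enpl-1 (-0.33), C14B9.2 (-0.54) and dnj-7 (-0.85), a J-domain co-chaperone gene.

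The other branches of the unfolded protein response run through the PERK-type kinase and ATF-6. Of 9 tested regulators, 1 rose and 2 fell with 0.2 mM HF at 3 days, and 2 rose and 1 fell with 2.0 mM, beside the same 58.9% and 60.9% called of all. The PERK-type kinase gene pek-1 fell by 0.42 with 0.2 mM HF (adjusted p = 0.000365) and by 0.27 with 0.2 mM HF-HQ (adjusted p = 0.0257). The membrane-bound factor gene atf-6 was called in none of the 6 treatments, with differences from -0.08 to 0.02. By contrast atf-4, a factor acting after the kinases, rose by 0.47 and 0.41 at the low and high dose of HF at 3 days and by 0.38 with 0.2 mM HF-HQ, and fell by 0.18 with 2.0 mM HF at 11 days and by 0.20 with 2.0 mM HF-HQ. The kinase gene gcn-2 fell by 0.30 with 0.2 mM HF at 3 days and rose by 0.49 with 2.0 mM at 11 days. The choline kinase gene ckb-2 rose by 0.33 with 0.2 mM HF-HQ and fell by 0.35 with 2.0 mM HF at 11 days.

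Genes of ER-associated degradation, which draws misfolded protein out of the ER, were called with HF at 3 days as follows: 10 of 17 fell with 0.2 mM and 11 of 17 with 2.0 mM, where 32.9% of all probe sets were called lower at each dose, while 1 and 2 rose, where 26% and 28% were called higher. Among them the Npl4-type genes npl-4.1 (-0.70 and -0.87) and npl-4.2 (-0.61 and -0.78), which share sequence, fell at both doses. So did the ubiquitin chain factor gene ufd-2 (-0.68 and -0.70) and the ligase adaptor gene sel-1 (-0.61 and -0.69). The list's median was -0.30 with 0.2 mM and -0.33 with 2.0 mM, beside -0.03 and -0.02 for all probe sets. At 11 days none of 17 was called with 0.2 mM, where 4% of all probe sets were called. With 2.0 mM 5 rose and 3 fell, where 28.3% of all were called. With HF-HQ 2 rose and 2 fell at 0.2 mM, where 30.2% of all were called, and 2 fell at 2.0 mM, where 23.5% were.

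Of 20 tested genes of protein entry into the ER and N-glycosylation, 5 rose and 6 fell with either dose of HF at 3 days, 11 of 20 called beside 58.9% and 60.9% of all probe sets. The oligosaccharyltransferase gene ostb-1 fell by 0.53 at both doses, and the J-domain gene dnj-23 fell at both as well, by 0.84 with 2.0 mM. Whether dnj-23 shares the function of this list is uncertain, though it is part of the counts. At 11 days none was called with 0.2 mM, where 4% of all were called. With 2.0 mM 1 rose and 1 fell, where 28.3% of all were called. With 0.2 mM HF-HQ 3 rose and 5 fell, where 30.2% of all were called. Of these ribo-1 fell by 0.61 and sec-61.A, a gene of the translocation channel, by 0.53. With 2.0 mM HF-HQ 2 fell, where 23.5% of all were called. Of 12 abu and pqn genes with a probe set, which are induced when the response is blocked, only abu-14 was tested and it was called in none of the 6 treatments.

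**Figure D5:**
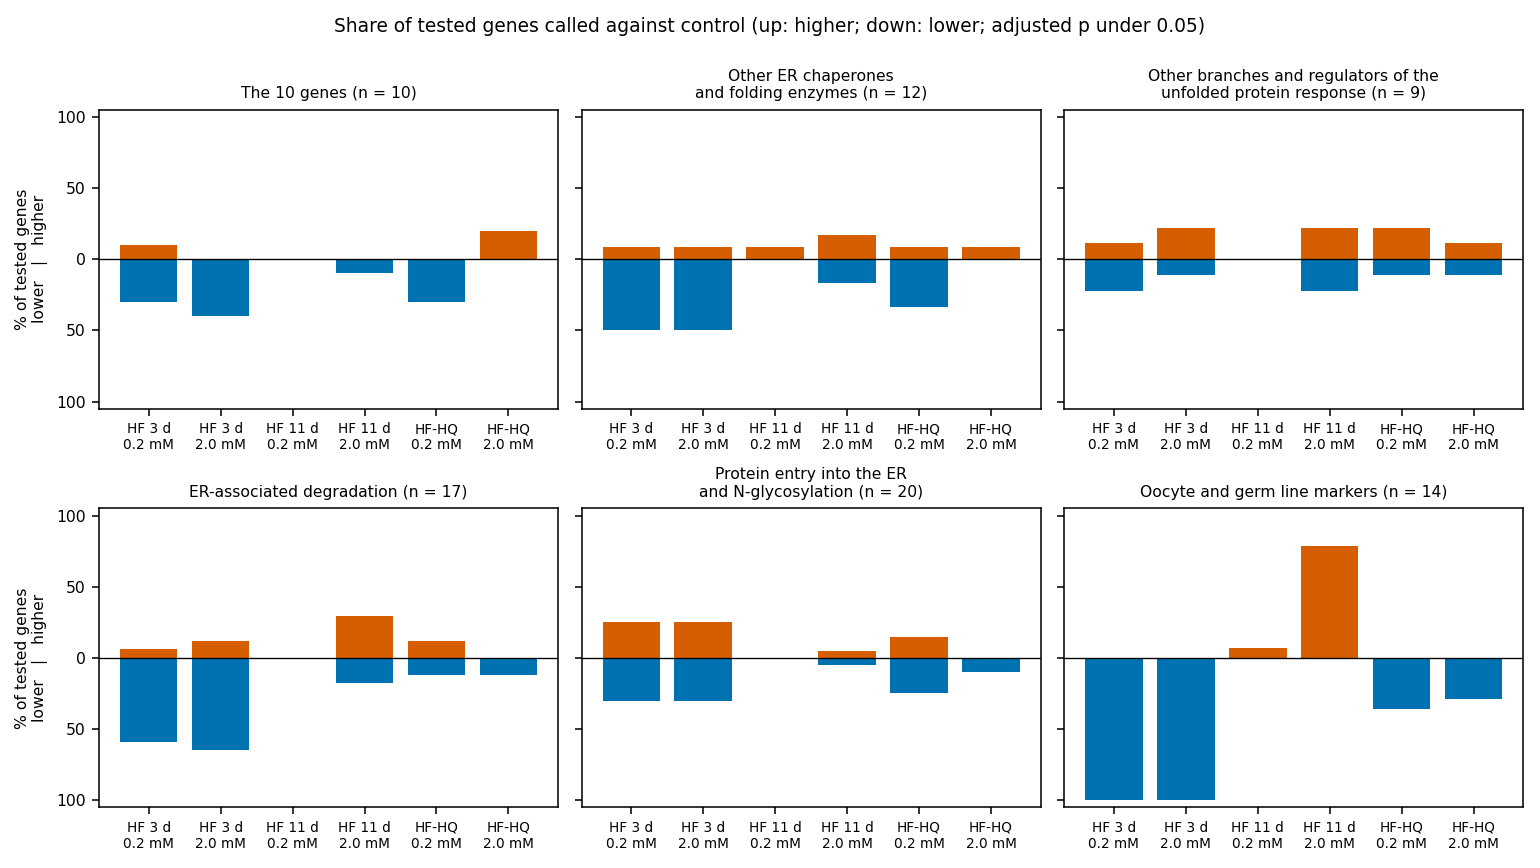
Share of tested genes called higher (upward) and lower (downward) against control in each treatment for the 10 genes, 4 lists of related ER genes and the germ line markers; n is the number tested. Under HF at 3 days 11 of 17 degradation genes fell with 2.0 mM and all 14 germ line markers fell at both doses. Of all tested probe sets 32.9% were called lower at each of these doses. At 11 days few genes are called with 0.2 mM, where 4% of all tested probe sets were called.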

How the data were processed

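Affymetrix arrays of whole worms were measured in 9 groups of 3. The authors deposited log2 levels, computed by GCRMA (background correction, normalization and summary) per the submitters' processing notes, with no version given. The build is not given in the sources used here, so no coordinates are printed. Gene symbols come from the platform annotation. Without 77 array controls, 22548 of 22625 probe sets remained, and 11102 with log2 over 5 in at least 3 of 27 arrays were tested. limma 3.58.1 (R 4.3.3) was fitted with 1 mean per group over all arrays and 14 contrasts, 2-sided, with Benjamini-Hochberg adjustment within each; the age contrast followed quantile normalization. Arrays give no counting depth, and their number limits the precision. The fit was tested on simulated arrays with known changes. Alternatives were no filter, a filter at log2 7, median centring, quantile normalization, a variance trend, the compared experiments alone, a replicate block, each array left out, and the median over a gene's probe sets.

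The members and lists were chosen with earlier results of these data known. Members were always named; from other lists 7 genes were always named, with up to 4 called genes of largest change per list and the 5 genes most like hsp-3, hsp-4, xbp-1 and crt-1. Of the genes that qualified, most are printed. Figures were drawn with Python 3.11.15 and matplotlib 3.10.9.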

Additional observations from a re-analysis of the deposited data

Results flagged for a closer look

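A difference between the effects of a treatment at 2 ages or of 2 preparations passed its own test in 17 cases. With 0.2 mM HF the effect at 11 days minus that at 3 days was -0.28 for hsp-3, 0.52 for hsp-4, 0.24 for xbp-1 and 0.61 for ire-1 on the log2 scale. These were 4 of 10 genes, where 26.1% of all tested probe sets were called higher and 16.6% lower. With 2.0 mM HF the differences between ages were -0.32 for hsp-3, 0.72 for hsp-4, 0.37 for xbp-1 and 0.63 for ire-1. This was again 4 of 10, where 32.7% of all were called higher and 29.3% lower. At 3 days the effect of 0.2 mM HF-HQ minus that of 0.2 mM HF was -1.22 for hsp-3, 0.30 for xbp-1, 0.67 for ire-1 and -0.56 for pdi-2. Here too 4 of 10 passed, where 24.4% of all were called higher and 15.8% lower. At 2.0 mM the difference between preparations was 0.50 for hsp-4, 0.54 for xbp-1, 0.61 for ire-1, 0.25 for crt-1 and 0.30 for pdi-6. That made 5 of 10, where 27.6% of all were called higher and 20.6% lower. No test for outlying arrays was run, since each group has 3 arrays, and array 2 of 0.2 mM HF-HQ is described by its values alone.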

How the results depend on the processing

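Over the alternatives other than leaving out arrays, 1053 of 1110 values for single genes kept their call or lack of one. Of the rest, 26 lost the call, 29 gained it and 2 called values reversed in sign. The sign was compared only for values called in the main fit. When 1 array was left out, 1028 of 1080 kept their call or lack of one, 42 lost the call and 10 gained it. The reversed values were those of the main probe set of pdi-6 between the ages, -0.017 centred and -0.10 as deposited. Of 10 genes, the count called with 2.0 mM HF at 11 days was 1, but 2 with the filter at log2 7, with quantile normalization, with the variance trend or with the probe-set median, and 4 with the experiment alone. For 2.0 against 0.2 mM HF at 3 days it was 1, but 0 centred, 2 with the trend and 3 with the probe-set median. For 2.0 against 0.2 mM HF-HQ it was 7, but 4 with the experiment alone. For 0.2 mM HF-HQ against control it was 3, but 5 with the probe-set median, and for the difference between ages with 0.2 mM HF it was 4, but 2 with no filter. The cause of these changes was not tested.

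Without 1 array the counts against control ran from 4 to 5 and 4 to 4 at the low and the high dose in young HF worms, 0 to 0 and 1 to 3 in old HF worms, and 2 to 5 and 1 to 2 with HF-HQ. Between doses they were 0 to 1 (HF, 3 days), 2 to 2 (HF, 11 days) and 3 to 7 (HF-HQ). Between ages the differences of effect gave 2 to 3 with 0.2 mM and 4 to 5 with 2.0 mM, between preparations 4 to 5 at each dose, and untreated worms of both ages 8 to 8. A pair of arrays left in a group was taken to vary like the others.

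Replicate numbers did not pair the arrays in general: of 27 correlations of deviations between arrays of the same number 3 were over 0.1 and 16 were negative. Those over 0.1 included HF-HQ control with 2.0 mM HF-HQ for number 1 (0.43) and number 2 (0.12), while number 3 gave -0.04. The other was 0.2 with 2.0 mM HF at 3 days for number 1 (0.21). With a replicate block the counts were 4 and 4 with HF at 3 days, 0 and 1 at 11 days and 2 and 2 with HF-HQ (low dose first), 1, 2 and 6 between doses, 4 and 4 between ages and 4 and 5 between preparations. For untreated worms of different age no fit with a block was run.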

Other observations

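Genes for enzymes that modify collagen in the ER and for proteins of its calcium store were measured too. Of 4 tested collagen-modifying genes, 2 rose and 1 fell with 0.2 mM HF at 3 days, where 58.9% of all probe sets were called. The prolyl 4-hydroxylase gene phy-2 rose by 0.37 with 0.2 mM and 0.33 with 2.0 mM HF on the log2 scale, and its partner dpy-18 rose by 0.33 with 0.2 mM HF and 0.36 with 0.2 mM HF-HQ, at an adjusted p of 0.0134 and 0.0193 by limma. The thioredoxin-like cuticle gene dpy-11 fell by 0.51 and 0.62 at the low and high dose of HF at 3 days. Against control none of the 4 was called at 11 days, where 4% of all probe sets were called at the low dose and 28.3% at the high dose. Nor was any called with 2.0 mM HF-HQ, where 23.5% of all were. Between the doses at 11 days 1 of the 4 was lower at the high dose, where 18.3% of all were called lower. The lysyl hydroxylase gene let-268 fell by 0.32 with 0.2 mM HF-HQ, where 30.2% of all were called.

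Of 5 genes listed for the ER calcium store, calu-1, the calumenin gene, rose by 0.54 and 0.75 with 0.2 and 2.0 mM HF at 3 days. It rose by 0.25 with 0.2 mM HF at 11 days and by 0.17 with 0.2 mM HF-HQ, and fell by 0.17 with 2.0 mM HF at 11 days. The calcium channel gene itr-1 rose by 0.51 with 2.0 mM HF at 3 days, and unc-68, a ryanodine receptor gene, by 0.41 with 2.0 mM at 11 days. The list also held sec-12, a factor of export from the ER and not of calcium, which fell by 0.47 and 0.45 with 0.2 and 2.0 mM HF at 3 days.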
